A study of Homo sapiens with 6 samples.

Results

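The genes described here are 34 genes of cholesterol and fatty acid synthesis, chosen by symbol as the enzymes and regulators of these pathways and 3 targets of the liver X receptor (LXR), out of 23228 gene symbols in the count tables. All 34 were found, and 33 of them passed the filter on low counts and stood among the 12796 genes tested. Transcripts were counted in MDA-MB-231, a human triple negative breast cancer cell line, grown in RPMI with 10% FBS. The 3 control replicates stably expressed a lentiviral shRNA without a target, and the 3 PELP1-KD replicates a lentiviral shRNA against PELP1, a coregulator of transcription factors, with puromycin used to select the cells of both groups. The knockdown rests on 1 shRNA, and nothing states that the replicates were separate cultures, so p-values measure the spread between these samples, which may be technical.

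Cells make cholesterol from acetyl-CoA through mevalonate, farnesyl diphosphate and squalene, and make fatty acids from acetyl-CoA through malonyl-CoA, followed by elongation and desaturation. Both routes are under the transcription factors SREBP-1 and SREBP-2, the products of SREBF1 and SREBF2, which are held in the endoplasmic reticulum by SCAP and INSIG proteins when sterols are plentiful and are carried to the Golgi and cleaved when sterols run low. LXR is activated by oxidized sterols and drives cholesterol export as well as SREBF1, which is why its targets are usually read together with these pathways.

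Promoters of the members with the largest changes are printed first, since both SREBPs act together with NF-Y at many of these genes. RefSeq gave 39 promoter windows on GRCh38.p14, each from 250 bases before to 50 bases after a transcription start, for 29 of the 34 members. The 250 bases before the start are shown 5′ to 3′ for SCD (chr10:100346983-100347232, plus strand), INSIG1 (chr7:155297628-155297877, plus strand), HMGCS1 (chr5:43313413-43313662, minus strand), ABCA1 (chr9:104928156-104928405, minus strand), FDPS (chr1:155308616-155308865, plus strand) and ACSS2 (chr20:34874739-34874988, plus strand), the members of largest log2 fold change in either direction that have a window. SREBF2 (chr22:41832855-41833104, plus strand) was added after the search because it holds the sterol regulatory element letters. HMGCS1 and ACSS2 have a pair of windows each, and the most upstream is shown. Capitals mark the core of the sterol regulatory element, CACCCCAC, and the NF-Y box, CCAAT, read on either strand.
SCD: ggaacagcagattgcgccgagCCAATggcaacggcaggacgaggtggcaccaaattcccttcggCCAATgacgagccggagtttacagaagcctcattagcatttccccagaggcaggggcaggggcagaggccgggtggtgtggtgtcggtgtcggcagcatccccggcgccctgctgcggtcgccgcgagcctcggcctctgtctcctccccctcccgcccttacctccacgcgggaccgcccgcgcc
INSIG1: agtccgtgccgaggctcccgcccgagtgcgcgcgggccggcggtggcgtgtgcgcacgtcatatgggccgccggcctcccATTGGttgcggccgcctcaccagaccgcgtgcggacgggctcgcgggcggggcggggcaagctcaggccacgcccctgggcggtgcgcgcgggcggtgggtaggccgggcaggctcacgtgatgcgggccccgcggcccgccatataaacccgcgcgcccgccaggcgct
HMGCS1: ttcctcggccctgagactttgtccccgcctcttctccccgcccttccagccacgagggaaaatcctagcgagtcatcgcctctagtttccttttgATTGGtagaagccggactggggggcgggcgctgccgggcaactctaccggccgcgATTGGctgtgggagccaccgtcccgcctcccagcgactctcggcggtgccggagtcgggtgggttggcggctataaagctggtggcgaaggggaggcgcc
ABCA1: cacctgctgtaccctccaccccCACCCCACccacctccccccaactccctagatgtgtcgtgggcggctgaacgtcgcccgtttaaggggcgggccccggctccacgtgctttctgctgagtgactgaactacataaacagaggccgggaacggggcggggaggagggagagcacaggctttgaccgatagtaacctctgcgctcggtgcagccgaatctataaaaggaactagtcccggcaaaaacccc
FDPS: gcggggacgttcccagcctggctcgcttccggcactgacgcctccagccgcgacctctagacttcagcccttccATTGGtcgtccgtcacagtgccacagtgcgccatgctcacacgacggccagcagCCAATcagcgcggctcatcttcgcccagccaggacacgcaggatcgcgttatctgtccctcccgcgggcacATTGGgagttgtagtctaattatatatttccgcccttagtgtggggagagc
ACSS2: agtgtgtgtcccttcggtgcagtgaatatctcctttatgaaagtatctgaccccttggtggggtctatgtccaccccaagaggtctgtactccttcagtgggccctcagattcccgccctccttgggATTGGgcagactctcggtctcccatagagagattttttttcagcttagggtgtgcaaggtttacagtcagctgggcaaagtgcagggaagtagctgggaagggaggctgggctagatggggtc
SREBF2: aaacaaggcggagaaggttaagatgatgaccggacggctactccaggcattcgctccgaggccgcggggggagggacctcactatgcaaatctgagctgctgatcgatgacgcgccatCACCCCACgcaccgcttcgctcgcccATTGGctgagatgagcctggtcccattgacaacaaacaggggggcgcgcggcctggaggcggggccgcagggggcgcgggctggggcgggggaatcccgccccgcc

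The NF-Y box was found in 26 of the 39 windows of the members (66.7%), compared with 34.6% of the 34943 windows in the RefSeq table and 34.6% of the windows of tested genes. FDPS held it 3 times, at -176, -122 and -51 from the start. SCD held it at -229 and -186, HMGCS1 at -155 and -100, INSIG1 at -170, ACSS2 at -123 and SREBF2 at -106. By response, the box was in 15 of 24 windows of members called lower in PELP1-KD cells (62.5%) and in 11 of 15 windows of the other members (73.3%).

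The sterol regulatory element core was in 2 of the 39 windows (5.13%), compared with 2.8% of all windows and 2.58% of those of tested genes. It lay at -228 in ABCA1 and at -132 in SREBF2. None of the 19 sterol or 13 fatty acid windows held it. Only these exact letters were searched, so variants of the element would be missed. ACAT2, FDFT1, SQLE, FASN and ABCG1 had no window to search. The Sp1 box, GGGCGG, was in 87.2% of the members' windows, 44.9% of all windows and 66.5% of those of tested genes. The E-box CACGTG, a letter run that SREBPs can also bind, was in 17.9% of the members' windows, 7.23% of all windows and 9.13% of those of tested genes. Both strands were searched for all 4 motifs, each a description of letters in these windows, and the search for windows of tested genes was added after the data were seen.

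The reads on genes numbered from 17304864 to 23132102 in a replicate. In CPM, the read count relative to the TMM-scaled size of the library, PELP1 itself lay between 56.1 and 60.2 in control and between 28.6 and 30.3 in PELP1-KD replicates, a log2 fold change (log2FC, PELP1-KD over control) of -0.97 (SE 0.055, adjusted p = 1.48e-11 by edgeR). The line's markers VIM, CD44 and AXL summed to between 4795 and 4913 CPM in control and between 4040 and 4097 CPM in PELP1-KD replicates, and all 3 were called lower. ESR1 and PGR, the estrogen and progesterone receptors, were at or under the floor of detection of 3 counts, and CDH1 reached at most 0.225 CPM. The other markers usually low in this line were present, ERBB2 at between 109 and 128 CPM and EPCAM at between 8.62 and 11.2 CPM, and neither was called. Of 6 fibroblast markers, COL1A1 and PDGFRB were called higher, with the summed level moving from between 19.4 and 24.1 CPM to between 61.9 and 67.3 CPM, while COL3A1 and DCN stayed at or under the floor and COL1A2 and LUM reached at most 0.188 and 0.256 CPM. Among 4 leukocyte and 5 adipocyte and hepatocyte markers, CD14 alone had enough counts to be tested and was not called, and it held the highest value, 0.75 CPM. The part of these marker shifts in the results for lipid genes was not tested.

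PELP1-KD cells had lower expression of many genes of both branches. By edgeR's quasi-likelihood test with an adjusted p-value below 0.05, 19 of the 33 members tested were lower (57.6%) and 1 was higher (3.03%), compared with 24.2% lower and 22.7% higher among all tested genes. The median log2FC was -0.17 for the members and 0.0014 for all tested genes. The members were chosen with earlier results of these data known, so the contrast with all tested genes is not independent of the data. A fall below -0.5 on the log2 scale together with the adjusted p-value was met by 7 members (21.2%) and by 4.81% of tested genes. No member fell below -1, which 1.34% of tested genes did. The changes were therefore frequent and modest in size, and the largest was that of SCD, which fell by 47.2%. In RNA from whole cultures, a lower level in every cell and a loss from some of the cells cannot be told apart.

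The groups did not overlap, with all 3 PELP1-KD values the lower, for 20 members (60.6%), compared with 28.0% of tested genes. These were the 19 called lower and TM7SF2. Since the members are well expressed, the counts were also set against tested genes with a mean of at least 10 CPM, an alternative added after the data were seen. Of the 31 members in that range, 19 were called lower (61.3%), compared with 28.8% of such genes. Scaling by library totals alone moved the calls over all tested genes from 3103 lower and 2904 higher to 2418 lower and 3817 higher. Under that scaling 16 of the 20 called members kept their call, and those that lost it are named below.

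**Figure D1:**
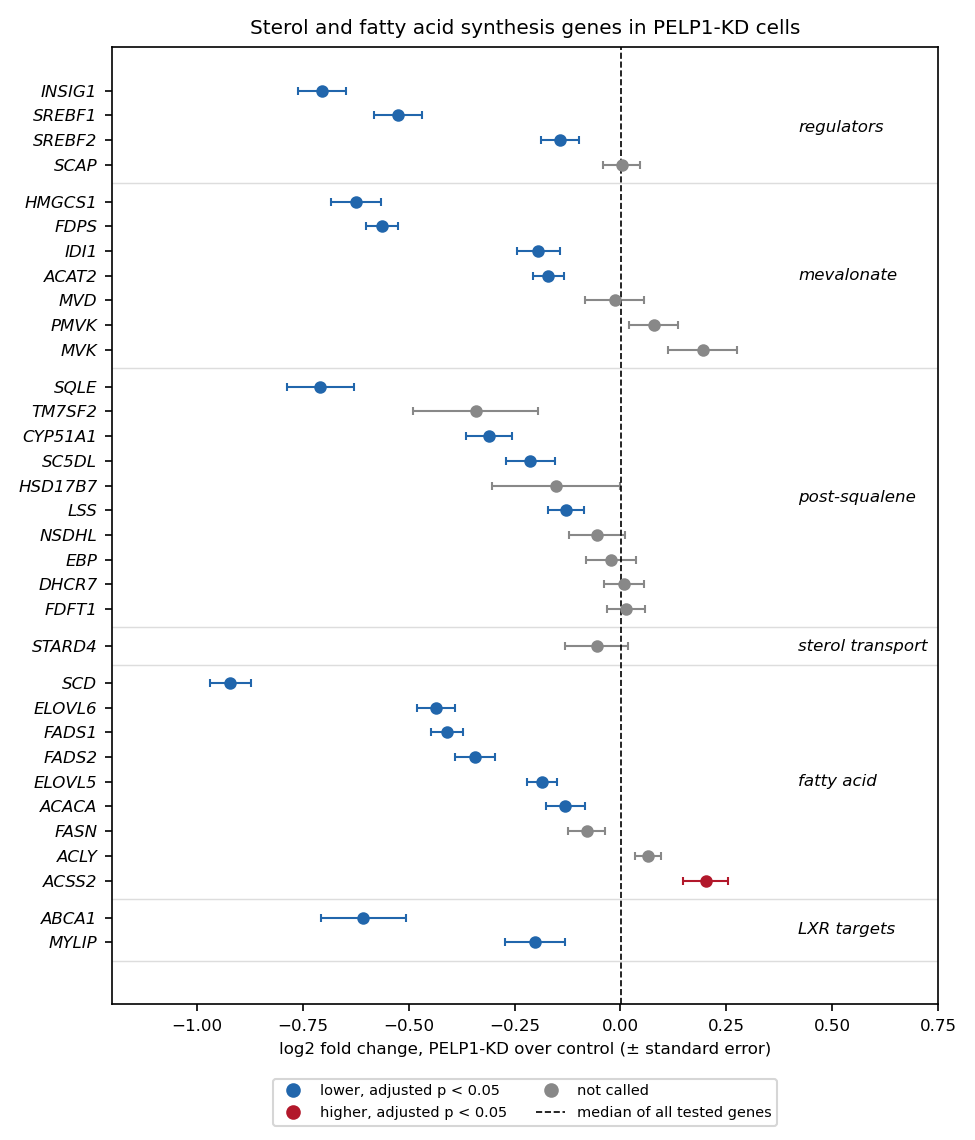
Log2FC of PELP1-KD over control (x axis) for the 33 members tested, grouped by role on the y axis, with bars of 1 standard error and colors for the edgeR call. The 19 members called lower lie between -0.92 for SCD and -0.13, ACSS2 alone is called higher at 0.20, and the dashed line marks the median of all tested genes.

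Levels per exon length spanned a wide range. In RPKM (reads scaled to exon length and library size, a level on a linear scale), the control mean was highest for ELOVL5, at 93.9, and for ACLY, at 91.5, followed by FDPS at 44.9, ACAT2 at 38.3, PMVK at 35.0 and FASN at 24.4. At the other end stood ABCA1 at 1.41, TM7SF2 at 1.27, HSD17B7 at 0.929 and ABCG1 at 0.0389 RPKM. Members not called stood throughout this order. Among them were ACLY, PMVK and FASN near the top and MVK, at 2.80 RPKM, and STARD4, at 3.78 RPKM, near the bottom. Others, such as EBP at 19.4, DHCR7 at 19.1 and FDFT1 at 13.8 RPKM, lay between. Of the lowest members named above, only ABCA1 was called. TM7SF2 and HSD17B7 had the largest errors of log2FC among the members (SE 0.15 each), and ABCG1 was not tested.

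**Figure D2:**
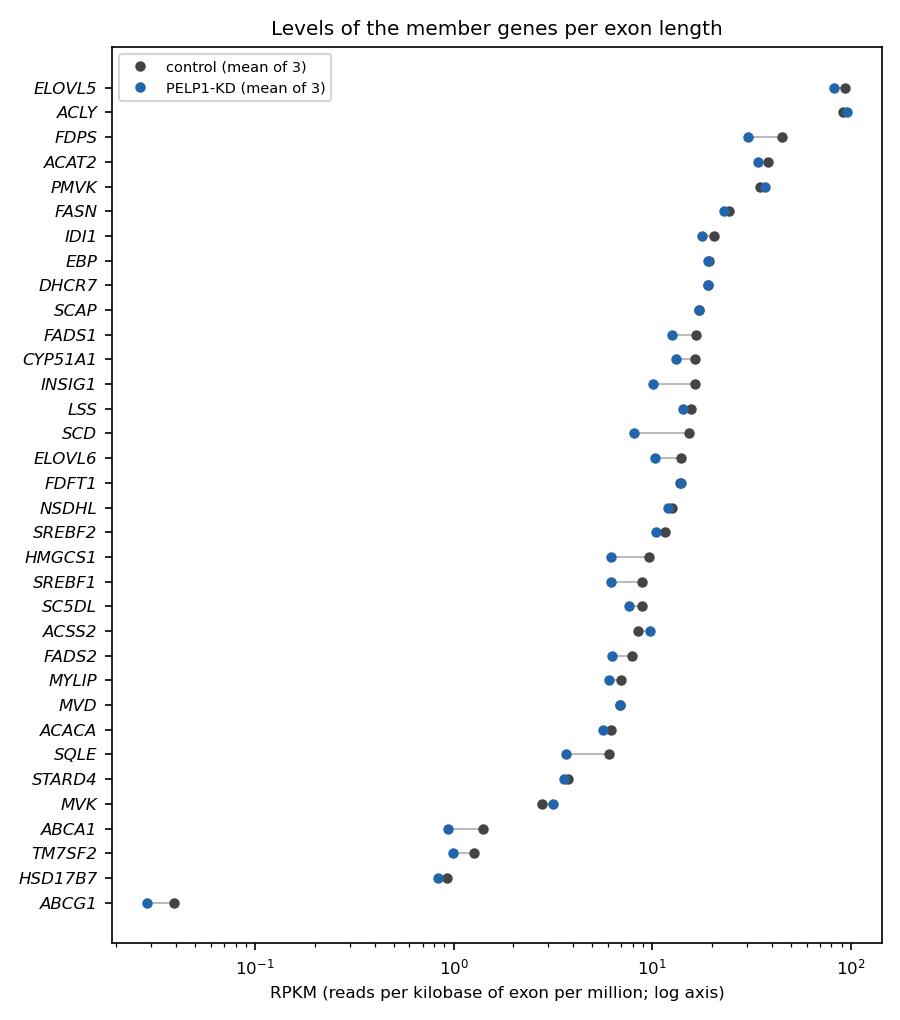
Mean RPKM of the 34 members in control and PELP1-KD replicates (log axis, 3 replicates a group), ordered by the control mean from 93.9 for ELOVL5 to 0.0389 for ABCG1. The gap between the points of a gene is its change, widest on this log axis for SCD, from 15.4 to 8.13 RPKM.

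Among the 4 regulators, 3 were lower (75.0%, compared with 24.2% of all tested genes) and the escort protein was not called. INSIG1, the endoplasmic reticulum anchor that holds SCAP and is itself a target of SREBPs, lies on chromosome 7 (155297776 to 155310235, plus strand, GENCODE 29 on GRCh38). It stood at 58.8, 62.3 and 58.4 CPM in control replicates 1, 2 and 3 and at 39.55, 35.1 and 35.8 CPM in PELP1-KD replicates 1, 2 and 3. The groups were well apart, with a log2FC of -0.70 (SE 0.057, adjusted p = 2.70e-09 by edgeR). SREBF1 encodes the SREBP that chiefly drives fatty acid genes (chromosome 17, 17810399 to 17837002, minus strand). It stood at 67.5, 72.8 and 73.8 CPM in control and at 46.2, 54.05 and 48.6 CPM in PELP1-KD replicates, with a log2FC of -0.53 (SE 0.057, adjusted p = 2.44e-07). An exon of RAI1 on the other strand overlaps SREBF1, and whether the counting used strand is not given in the sources used here.

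SREBF2 encodes the SREBP that chiefly drives sterol genes (chromosome 22, 41833079 to 41907308, plus strand). Its control replicates were at 85.8, 87.6 and 89.15 CPM and its PELP1-KD replicates at 77.0, 82.0 and 78.8 CPM. The groups did not overlap, but the gap was small, with a log2FC of -0.14 (SE 0.044, adjusted p = 0.0115). SREBF2 lost its call without PELP1-KD replicate 1 (log2FC -0.12, adjusted p = 0.0667) and under library totals alone (-0.09, adjusted p = 0.0873). SCAP, which carries the SREBPs to the Golgi, was at 109, 111.5 and 112.5 CPM in control and at 107, 118 and 109 CPM in PELP1-KD replicates. These groups overlapped, with a log2FC of 0.0028 (SE 0.043, adjusted p = 0.964).

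**Figure D3:**
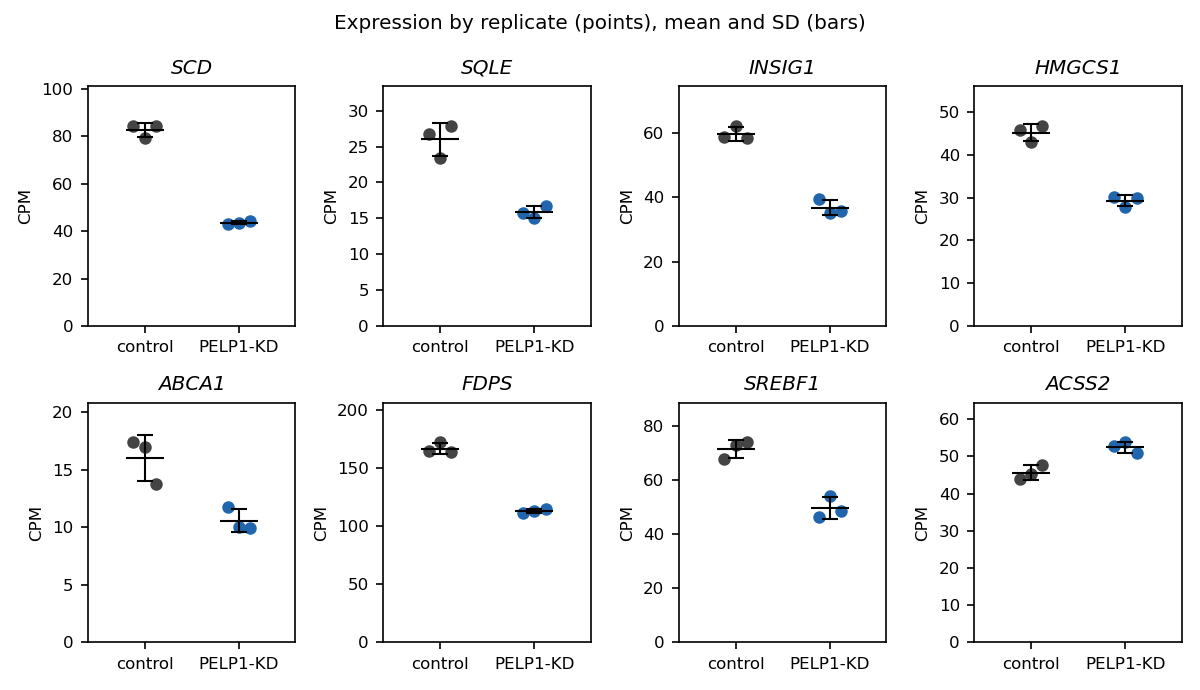
CPM of 8 members in each replicate (points, y axes from 0), with the mean and SD as bars. In SCD, SQLE, INSIG1, HMGCS1, ABCA1, FDPS and SREBF1 all 3 PELP1-KD points lie below all 3 control points, and in ACSS2 they lie above.

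In the mevalonate steps, from acetyl-CoA to farnesyl diphosphate, 4 of 7 members were lower (57.1%, compared with 24.2% of all tested genes). None was higher, and the median log2FC was -0.17. HMGCS1, the cytosolic synthase that makes HMG-CoA (chromosome 5, 43289395 to 43313512, minus strand), had the largest change. It stood at 45.8, 43.1 and 46.75 CPM in control and at 30.1, 27.8 and 29.9 CPM in PELP1-KD replicates, a log2FC of -0.62 (SE 0.059, adjusted p = 3.03e-08). FDPS, which joins the isoprenoid units into farnesyl diphosphate (chromosome 1, 155308748 to 155320666, plus strand), stood at 165, 172 and 164 CPM in control and at 111, 113 and 115 CPM in PELP1-KD replicates. Its log2FC was -0.56 (SE 0.038, adjusted p = 1.78e-10), and its spread within each group was small beside that gap. FDPS has 8 pseudogenes in GENCODE 29 and an antisense neighbor, RUSC1-AS1, so its counts carry that uncertainty.

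IDI1, the isopentenyl diphosphate isomerase (chromosome 10, 1039152 to 1049170, minus strand), was at 94.0, 88.4 and 84.0 CPM in control and at 78.75, 73.1 and 80.9 CPM in PELP1-KD replicates. Its log2FC was -0.19 (SE 0.051, adjusted p = 0.00357), with the lowest control replicate close above the highest PELP1-KD replicate. ACAT2, the cytosolic thiolase at the entry to the pathway (chromosome 6, 159760328 to 159779055, plus strand), was at 164, 166 and 164 CPM in control and at 148, 149 and 142 CPM in PELP1-KD replicates. The change was small but even, with a log2FC of -0.17 (SE 0.036, adjusted p = 6.26e-04). Exons of TCP1 and SOD2 on the other strand overlap ACAT2, and an antisense RNA overlaps IDI1.

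The kinases and the decarboxylase between HMG-CoA and isopentenyl diphosphate were not called. MVK, mevalonate kinase, had a log2FC of 0.19 (SE 0.081, adjusted p = 0.056), with control replicates at 17.6, 16.85 and 19.9 CPM and PELP1-KD replicates at 19.4, 22.45 and 20.1 CPM. It was called higher in 5 of 13 alternative fits, among them those without control replicate 3 (0.26, adjusted p = 0.0189), without PELP1-KD replicate 1 (0.24, adjusted p = 0.0445), under library totals alone (0.24, adjusted p = 0.0189) and without the filter on low counts (0.19, adjusted p = 0.0404). PMVK, phosphomevalonate kinase, had a log2FC of 0.08 (SE 0.057, adjusted p = 0.277), and MVD, the decarboxylase, of -0.01 (SE 0.069, adjusted p = 0.882). An exon of MMAB overlaps MVK on the other strand.

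In the steps from farnesyl diphosphate through squalene to cholesterol, 4 of 10 members were lower (40.0%, compared with 24.2% of all tested genes). None was higher, and the median log2FC was -0.14. SQLE, squalene epoxidase, an oxygen-dependent and rate-limiting step, stood at 26.8, 23.45 and 27.9 CPM in control and at 15.75, 15.05 and 16.7 CPM in PELP1-KD replicates. Its log2FC of -0.71 (SE 0.079, adjusted p = 3.09e-07) was the largest of the sterol branch. CYP51A1, the lanosterol demethylase (chromosome 7, 92112151 to 92134803, minus strand), stood at 62.6, 57.1 and 57.05 CPM in control and at 47.8, 45.6 and 48.95 CPM in PELP1-KD replicates. The groups were apart, with a log2FC of -0.31 (SE 0.054, adjusted p = 8.00e-05), in a gene with 3 pseudogenes.

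SC5DL (current symbol SC5D), which introduces a double bond into the sterol ring (chromosome 11, 121292453 to 121308694, plus strand), stood at 51.5, 46.9 and 49.9 CPM in control and at 44.8, 40.1 and 42.9 CPM in PELP1-KD replicates. Its log2FC was -0.21 (SE 0.057, adjusted p = 0.00453). LSS, which closes the ring to lanosterol (chromosome 21, 46188141 to 46228824, minus strand), stood at 109, 113 and 119 CPM in control and at 103, 106 and 102 CPM in PELP1-KD replicates. Its log2FC of -0.13 (SE 0.042, adjusted p = 0.0167) was the smallest called in the branch. The call for LSS was lost without control replicate 3, PELP1-KD replicate 1 or PELP1-KD replicate 3 (adjusted p between 0.062 and 0.105) and under library totals alone (adjusted p = 0.131).

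The other post-squalene members were not called. FDFT1, squalene synthase, which makes the first committed sterol intermediate, had a log2FC of 0.01 (SE 0.046, adjusted p = 0.834), so that the neighboring steps FDPS and SQLE were lower around a gene without a detectable difference. DHCR7, the last reductase of the pathway, had a log2FC of 0.01 (SE 0.047, adjusted p = 0.886) and EBP, the sterol isomerase, of -0.02 (SE 0.059, adjusted p = 0.787). NSDHL, a sterol dehydrogenase, had a log2FC of -0.06 (SE 0.067, adjusted p = 0.52). TM7SF2 and HSD17B7, both sterol reductases near 4 CPM, had larger errors. For TM7SF2 the PELP1-KD replicates were all lower (log2FC -0.34, SE 0.15, adjusted p = 0.0624), and the call appeared without control replicate 2 (-0.45, adjusted p = 0.0335). HSD17B7, which has 2 pseudogenes, had a log2FC of -0.15 (SE 0.15, adjusted p = 0.423). STARD4, a carrier of cholesterol between membranes, had a log2FC of -0.06 (SE 0.074, adjusted p = 0.554).

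In the fatty acid branch, 6 of 9 members were lower (66.7%), 1 was higher (11.1%) and 2 were not called, with a median log2FC of -0.19. Among all tested genes, 24.2% were lower and 22.7% higher. The lower members were desaturases and elongases and the carboxylase that makes malonyl-CoA, whereas fatty acid synthase and the citrate lyase were not called in the main test. SCD, the desaturase that makes oleate from stearate (chromosome 10, 100347124 to 100364834, plus strand), stood at 84.4, 79.2 and 84.4 CPM in control and at 43.0, 43.55 and 44.3 CPM in PELP1-KD replicates. Its log2FC was -0.92 (SE 0.049, adjusted p = 4.16e-12), the largest of all members, and 1.55% of tested genes had a log2FC at or below it. SCD has 1 pseudogene.

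ELOVL6, which lengthens palmitate to stearate (chromosome 4, 110045846 to 110199199, minus strand), stood at 102, 103 and 101 CPM in control and at 74.4, 72.7 and 79.5 CPM in PELP1-KD replicates. Its log2FC was -0.44 (SE 0.045, adjusted p = 9.75e-08). ELOVL5, which lengthens polyunsaturated fatty acids (chromosome 6, 53267398 to 53349179, minus strand), stood at 373, 346 and 354 CPM in control and at 320, 299.9 and 323 CPM in PELP1-KD replicates. Both elongases were apart between the groups, ELOVL5 with the smaller log2FC of -0.19 (SE 0.036, adjusted p = 2.21e-04).

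FADS1 and FADS2, the front-end desaturases of polyunsaturated fatty acids, are neighbors on chromosome 11 (61799625 to 61829318, minus strand, and 61792980 to 61867354, plus strand). FADS1 stood at 172, 166 and 175 CPM in control and at 130, 126 and 129 CPM in PELP1-KD replicates, a log2FC of -0.41 (SE 0.037, adjusted p = 1.75e-08). FADS2 stood at 85.8, 89.4 and 87.2 CPM in control and at 68.3, 72.2 and 66.6 CPM in PELP1-KD replicates, a log2FC of -0.34 (SE 0.046, adjusted p = 3.85e-06). Exons of the genes overlap on opposite strands, so that their counts may not be fully separate. On the same strand, FEN1 overlaps an exon of FADS2 and MIR1908 an exon of FADS1, which counting by strand would not separate.

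ACACA, the acetyl-CoA carboxylase that makes malonyl-CoA for synthesis (chromosome 17, 37084988 to 37406818, minus strand), stood at 81.8, 82.0 and 78.45 CPM in control and at 70.8, 73.9 and 76.5 CPM in PELP1-KD replicates. The groups came close, and the log2FC was -0.13 (SE 0.046, adjusted p = 0.0254). ACACA lost its call without control replicate 2, PELP1-KD replicate 1 or PELP1-KD replicate 2 (adjusted p between 0.0521 and 0.132) and under library totals alone (adjusted p = 0.152). ACSS2, which makes acetyl-CoA from acetate (chromosome 20, 34872146 to 34927962, plus strand), was the only member called higher. It stood at 43.8, 45.2 and 47.7 CPM in control and at 52.8, 53.7 and 50.8 CPM in PELP1-KD replicates, with a log2FC of 0.20 (SE 0.053, adjusted p = 0.00368). It was called higher in all 13 alternative fits.

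FASN, which builds palmitate from malonyl-CoA, was at 215, 236.5 and 234.5 CPM in control and at 210, 232 and 208 CPM in PELP1-KD replicates. The groups overlapped, with a log2FC of -0.08 (SE 0.043, adjusted p = 0.136), and the call of FASN appeared without control replicate 1 (-0.12, adjusted p = 0.0037) or PELP1-KD replicate 2 (-0.13, adjusted p = 0.0181). ACLY, which makes cytosolic acetyl-CoA from citrate and so feeds both branches, was at 499, 472.5 and 461 CPM in control and at 504, 498 and 497 CPM in PELP1-KD replicates. These groups overlapped through control replicate 1, with a log2FC of 0.07 (SE 0.031, adjusted p = 0.088), and ACLY was called higher without that replicate (0.10, adjusted p = 0.00273) and under library totals alone (0.12, adjusted p = 0.00331).

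The branches were then set side by side, as the mean of log2 CPM over the 17 sterol genes (mevalonate and post-squalene) and over the 9 fatty acid genes in each replicate. The sterol mean was 5.37, 5.366 and 5.403 in control and 5.177, 5.191 and 5.207 in PELP1-KD replicates. The fatty acid mean was 7.111, 7.103 and 7.115 in control and 6.851, 6.866 and 6.865 in PELP1-KD replicates. Neither mean overlapped between groups, and the difference of group means was -0.188 for sterol and -0.249 for fatty acid genes on the log2 scale. The shares called lower were 8 of 17 sterol genes (47.1%) and 6 of 9 fatty acid genes (66.7%), compared with 24.2% of all tested genes.

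Sterol minus fatty acid within a replicate was -1.742, -1.736 and -1.712 in control and -1.673, -1.675 and -1.659 in PELP1-KD replicates, so that the fatty acid genes were lower by a further 0.061 on the log2 scale. This gap rested on SCD. Without SCD, an alternative added after the data were seen, the fatty acid mean differed by -0.165 between groups, and sterol minus fatty acid by -0.023 with overlapping groups. Leaving out any other single gene of either branch gave between 0.037 and 0.117, with no overlap. Within the branches, log2FC ran from -0.71 to 0.19 in the sterol genes and from -0.92 to 0.20 in the fatty acid genes.

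**Figure D4:**
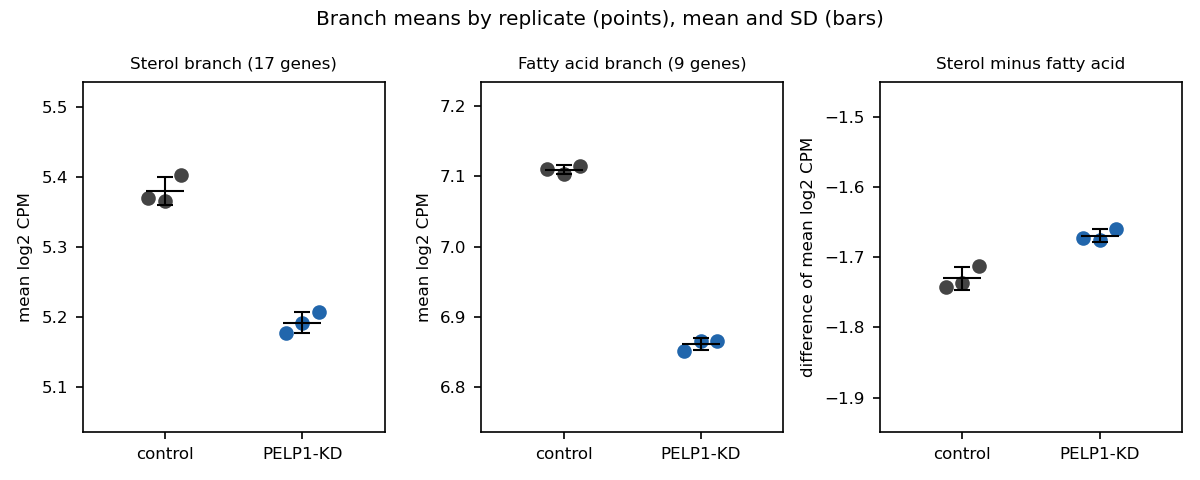
Mean log2 CPM of the 17 sterol genes, of the 9 fatty acid genes and their difference in each replicate (points), with the mean and SD as bars and axes that do not start at 0. Both branch means are lower in all 3 PELP1-KD replicates, by 0.188 and 0.249 on the log2 scale read from the group means, and the difference of branches shifts by 0.061.

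Of the LXR targets, both that could be tested were lower, compared with 24.2% of all tested genes. ABCA1, the exporter of cholesterol to lipid-poor apolipoprotein (chromosome 9, 104781002 to 104928237, minus strand), stood at 17.4, 16.99 and 13.7 CPM in control and at 11.75, 10.03 and 9.98 CPM in PELP1-KD replicates. Its groups did not overlap, with a log2FC of -0.61 (SE 0.10, adjusted p = 4.58e-05). MYLIP, the ubiquitin ligase that removes lipoprotein receptors (chromosome 6, 16129125 to 16148248, plus strand), stood at 20.75, 21.5 and 20.8 CPM in control and at 18.5, 18.9 and 17.6 CPM in PELP1-KD replicates, with a log2FC of -0.20 (SE 0.070, adjusted p = 0.0231). MYLIP lost its call in DESeq2 (adjusted p = 0.0768), under library totals alone (adjusted p = 0.0786), and without control replicate 2, PELP1-KD replicate 1 or PELP1-KD replicate 3 (adjusted p between 0.0508 and 0.0987). ABCG1, the exporter of cholesterol to high-density lipoprotein, had 7, 3 and 3 counts in control and 5, 3 and 3 counts in PELP1-KD replicates, too few to be tested.

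A list of 107 other genes of these pathways was read in the same way, 89 of them with enough counts to be tested. Of these, 28 were lower (31.5%) and 13 were higher (14.6%), compared with 24.2% and 22.7% of all tested genes, with a median log2FC of -0.03. The share of lower genes was thus closer to that of all tested genes than was the share among the members (57.6%). Both lists were chosen with earlier results of these data known. The 16 genes that move and process SREBPs held 9 lower (56.2%) and none higher, with a median log2FC of -0.18. SEC24C, a cargo adaptor of the COPII coat, stood at 194, 189.6 and 196.8 CPM in control and at 120.6, 134.9 and 120.5 CPM in PELP1-KD replicates, a log2FC of -0.63 (SE 0.043, adjusted p = 2.26e-10). The proteases that cleave SREBPs in the Golgi were both lower. MBTPS1 (site-1 protease) had a log2FC of -0.48 (SE 0.036, adjusted p = 8.37e-10), from a mean of 188 ± 0.42 CPM (SD, n = 3) to 135 ± 3.23 CPM. MBTPS2 (site-2 protease) had a log2FC of -0.62 (SE 0.066, adjusted p = 1.50e-07), from 44.7 ± 4.27 CPM (SD, n = 3) to 29.01 ± 0.463 CPM. INSIG2, the companion of INSIG1, had a log2FC of -0.20 (SE 0.063, adjusted p = 0.0153).

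The other lists were mixed in direction. Of 18 further genes of sterol synthesis and transport, 6 were lower (33.3%) and 5 higher (27.8%). Among all tested genes, 24.2% were lower and 22.7% higher. The lower genes were led by NPC1, which exports cholesterol from lysosomes, at -0.81 (SE 0.048, adjusted p = 2.80e-11). The higher genes were led by LRP1, a lipoprotein receptor, at 0.79 (SE 0.075, adjusted p = 3.43e-08). NPC1 averaged 98.6 ± 4.77 CPM (SD, n = 3) in control and stood at 57.71, 56.62 and 55.06 CPM in PELP1-KD replicates. LRP1 stood at 12.48, 13.86 and 13.63 CPM in control and at 22.32, 23.72 and 23.28 CPM in PELP1-KD replicates. In both genes the groups were far apart.

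Of 26 further fatty acid genes, 9 were lower (34.6%, compared with 24.2% of all tested genes) and 3 higher (11.5%, compared with 22.7%), with a median log2FC of 0.0057. ELOVL1, an elongase of very long saturated chains, had the largest fall of the list, from 123.5, 121.1 and 125.0 CPM in control to 58.48, 59.44 and 54.85 CPM in PELP1-KD replicates (log2FC -1.10, SE 0.045, adjusted p = 7.36e-14). ELOVL3, another elongase, had the largest rise but from a low level, with 20, 25 and 20 counts in control and 59, 75 and 72 counts in PELP1-KD replicates (log2FC 1.49, SE 0.19, adjusted p = 2.37e-06). SCD5, the second human stearoyl-CoA desaturase, was higher at 0.23 (SE 0.055, adjusted p = 0.00138), opposite to SCD. ACACB, the mitochondrial carboxylase, was lower at -0.41 (SE 0.11, adjusted p = 0.00552).

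Of 19 genes of glycerolipid and sterol ester synthesis, 2 were lower and 2 higher (10.5% each). Both shares were below those of all tested genes, 24.2% lower and 22.7% higher. SOAT1, which esterifies cholesterol for storage, had a log2FC of -0.11 (SE 0.033, adjusted p = 0.00909). Of 10 LXR receptors and partners, 2 were lower and 3 higher. The receptor NR1H3 (LXR alpha) was higher at 0.36 (SE 0.097, adjusted p = 0.00431), its sister NR1H2 (LXR beta) was not called at 0.07 (SE 0.053, adjusted p = 0.294), and their partner RXRA was lower at -0.61 (SE 0.050, adjusted p = 3.94e-09). LPCAT3 and MLXIPL, the LXR targets of this list that were called, were both higher, whereas the members ABCA1 and MYLIP were lower. LPCAT3, a phospholipid remodeling enzyme, had a log2FC of 0.34 (SE 0.081, adjusted p = 0.00174). MLXIPL, the carbohydrate response factor, had a log2FC of 1.39 (SE 0.34, adjusted p = 0.00234) on 8, 7 and 9 counts in control and 24, 29 and 18 counts in PELP1-KD replicates. SMPDL3A, a phosphodiesterase, was not called, with overlapping groups and a log2FC of -0.04 (SE 0.14, adjusted p = 0.832), and the sterol exporters ABCG5 and ABCG8 had 0 counts in all 6 replicates. SMPDL3A, ABCG5 and ABCG8 were chosen after their values were seen.

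**Figure D5:**
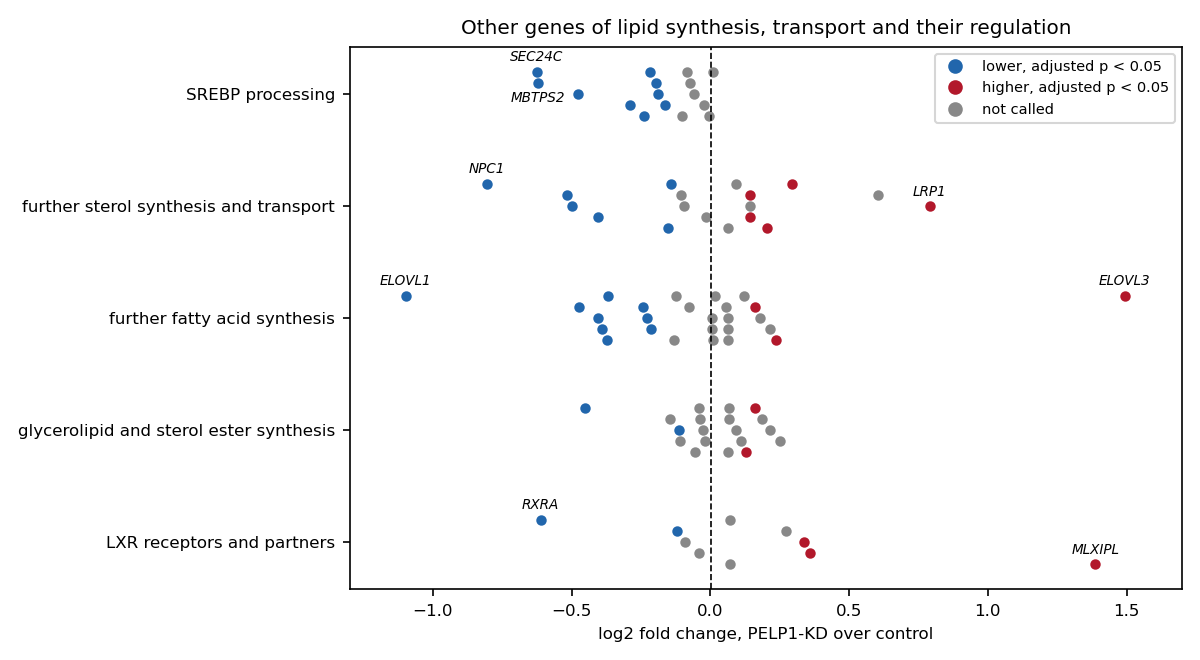
Log2FC of PELP1-KD over control (x axis) for the 89 other pathway genes tested, by list (y axis; the offset within a list has no meaning), colored by the edgeR call. The SREBP processing genes hold 9 lower and none higher, while the other lists hold genes in both directions, from ELOVL1 at -1.10 to ELOVL3 at 1.49.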

How the data were processed

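RNA-seq was done on 3 control and 3 PELP1-KD replicates of MDA-MB-231, grouped by the sample labels. The libraries were stranded, poly(A) selected and sequenced as single reads of 50 bases. The authors deposited raw counts of reads per gene symbol, without normalization or pooling. The submitters' processing notes name hg19, bcl2fastq, TopHat2, SAMtools and HTSeq. The annotation and the strand setting of the counting are not given in the sources used here. Reads with more than 1 alignment (32.5% to 32.9%) were placed on no gene, which lowers the counts of genes with close copies. Rows that name no gene held 41.0% to 41.4% of the reads in each replicate and were left out.

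Genes passing filterByExpr (minimum count 10) were scaled by TMM and tested with the quasi-likelihood test of edgeR 4.0.16 in R 4.3.3, with Benjamini-Hochberg adjustment over 12796 genes. The SE was taken as the size of the log2FC over the root of the F statistic. A prior count of 2 went into log2 CPM. The biological coefficient of variation was 3.52%, and 3 counts, the floor of detection, correspond to between 0.13 and 0.173 CPM, which covers counting error only since reads carry no molecular identifiers. Chi-square per degree of freedom between replicates of a group was between 1.47 and 4.11, above sampling noise. Exon lengths and gene coordinates came from GENCODE 29 on GRCh38, not from the hg19 of the counts. The steps were tested on simulated data.

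The members and gene lists were chosen with earlier results of these data known. All members are named, with full values for the regulators, the LXR targets and the called genes of each branch. Of the other list, the 5 largest called changes in each direction and 8 genes chosen by role are named, and other genes were picked with their values known, as stated beside them. Alternatives were RLE factors, library totals alone, DESeq2 1.42.0, limma 3.58.1 with voom, no filter, at least 10 counts in every replicate, a fold threshold, a replicate block and leaving out each replicate. Replicate numbers were not found to pair the samples, with correlations of deviations of 0.0388, 0.0653 and -0.0784 for numbers 1, 2 and 3.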

Additional observations from a re-analysis of the deposited data

How the results depend on the processing

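Of the 20 called members, 20 kept call and direction under RLE factors, voom, no filter, at least 10 counts in every replicate and the replicate block, 19 in DESeq2, 16 under library totals alone and between 16 and 20 when 1 replicate was left out. Of 429 member values under alternatives, 391 kept direction and side of the threshold, 15 lost the call, 12 gained it and 11 changed sign, all 11 in genes never called. With a log2FC beyond 1 required, 0 members were lower and 0 higher. Under library totals alone, which shifts the median of all genes from 0.0014 to 0.0507, the genes called higher were 3 members, 1 sterol, 2 fatty acid and 23 further genes, and the branch medians were -0.10 (sterol) and -0.14 (fatty acid). Without the filter, 2 members were higher, 1 of them a sterol gene. The samples share only a number, and with the replicate block 3 members were called higher, 1 sterol gene (MVK, adjusted p = 0.0383) and 2 fatty acid genes (ACSS2 and ACLY, the latter at 0.0494), FASN was called lower (0.0486), and no member lost its call. The sterol minus fatty acid difference turned to -0.023 without SCD.

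With 1 replicate left out, the members called lower were between 15 and 20 and those called higher between 1 and 2. The sterol genes called higher were between 0 and 1, the fatty acid genes called higher between 1 and 2, and the further genes called higher between 9 and 13. The sterol median lay between -0.16 and -0.12, and log2FC between -0.0383 and 0.0309 for SCAP, -0.0338 and 0.0327 for DHCR7, -0.0924 and 0.0297 for MVD, -0.0859 and 0.0344 for EBP, and -0.0022 and 0.0398 for FDFT1. Under library totals alone MVD was at 0.0355 and EBP at 0.0279. PELP1 stayed between -0.99 and -0.92 over all alternatives. With 3 replicates a group, an exact test on 1 gene cannot go below 0.1, and differences in genes near 4 CPM were not detectable below their errors.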

Other observations

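Ratios of related genes within a replicate do not depend on library scaling, and the pairs given here were chosen after their values were seen. SCD over SCD5, the desaturase isozymes, had a log2 ratio of 1.21, 1.10 and 1.19 in control replicates 1, 2 and 3 and of -0.07, 0.03 and 0.07 in PELP1-KD replicates 1, 2 and 3, so that SCD reads fell from well above SCD5 reads to about the same number. ELOVL1 over ELOVL3 moved from a mean of 6.73 to 4.16, although ELOVL1 stayed by far the more abundant. NPC1 over NPC2, which hand cholesterol to each other in the lysosome, moved from -1.04 to -2.14. RXRA over RXRB moved from -0.15 to -0.83, and INSIG1 over INSIG2 from 1.14 to 0.64.

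Between steps of the same branch, SQLE over FDFT1 moved from -1.47 to -2.19 and SCD over FASN from -1.47 to -2.31. SREBF1 over SREBF2 moved from -0.29 to -0.68. FADS1 over FADS2 moved least, from 0.97 to 0.90, with overlapping groups (two-sided exact permutation p = 0.3). Of the 12 ratios computed, the other 11 did not overlap between groups, with an exact permutation p of 0.1 each, the smallest that 3 against 3 allows. As the pairs were chosen with their values seen, this count describes the chosen pairs only.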
